A study of Mus musculus with 6 samples.

Results

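The subject of this report is a set of 10 genes of blood and lymph vessel growth, chosen by gene symbol: the VEGF ligands Vegfa, Vegfb and Vegfc, their receptors Kdr, Flt1 and Flt4, the angiopoietins Angpt1 and Angpt2, and the Tie receptors Tek and Tie1. All 10 symbols were found among the 20138 genes of the authors' deposited table. Kidney RNA was sequenced from 3 mice of each of 2 genotypes at postnatal day 35. The Pkd2-miR-214-KO mice carried the Pkhd1Cre transgene, floxed alleles of Pkd2 (Pkd2 F/F) and the miR-214null allele, and the Pkd2-KO mice carried Pkhd1Cre and Pkd2 F/F without that allele. Pkhd1-driven Cre acts in kidney tubule epithelium, so neither genotype is a deletion of Pkd2 in vessels, and mice with intact Pkd2 were not analysed here. The deposited values are the authors' log2 fold, mean log2 CPM (reads scaled by library size) and likelihood ratio test per gene. Values per animal were not analysed here, so every error below is the approximate standard error (SE) that the authors' fold and likelihood ratio imply, with 3 animals per genotype behind it.

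VEGF-A, made in the kidney mainly by podocytes and tubule cells, acts on the endothelial receptor VEGFR2 (Kdr), while VEGFR1 (Flt1) binds it tightly and, in its secreted form, acts as a decoy. VEGF-C acts on VEGFR3 (Flt4), best known from lymphatic vessels. Angiopoietin-1, from cells around the vessels, activates the receptor Tie2 (Tek) and keeps vessels quiet, angiopoietin-2, from endothelium, mostly opposes it, and Tie1 is a related receptor without a settled ligand of its own that modulates Tie2.

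The allele that separates the genotypes removes a microRNA, so the sequence through which it pairs with its targets and the matches to it in the 10 genes are shown first. The mature strands below are from RefSeq (GRCm38.p6), both on the plus strand of chromosome 1, from 162223438 to 162223459 for miR-214-3p and from 162223397 to 162223418 for miR-214-5p, and capitals mark the seed, bases 2 to 8.
miR-214-3p: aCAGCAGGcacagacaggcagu
miR-214-5p: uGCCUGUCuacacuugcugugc
The longest 3' UTR that GENCODE M21 annotates for each gene (mm10 coordinates, GRCm38) was searched for the 7-base match to the miR-214-3p seed, CCTGCTG, on the transcript strand. It occurred in 4 of the 10 genes, all of them receptors, and in 0 of the 5 ligands. Among all 16900 genes with an annotated 3' UTR, 21.3% hold it. The searched 3' UTRs of the 10 genes run from 417 to 3971 bases, and 7 of them are longer than the median of 1041 bases over all genes, so the shares are not matched for length. The 5 matches follow, with the paired bases in capitals.
Kdr, chr5:75934161-75934183, minus strand: taatgtgcCCTGCTGtggtctca
Flt1, chr5:147638376-147638398, minus strand: gtgtgtttCCTGCTGtgattaga
Flt1, chr5:147635833-147635855, minus strand: atagtaacCCTGCTGagtgatga
Flt4, chr11:49652215-49652237, plus strand: gcccagctCCTGCTGcccccccc
Tek, chr4:94874881-94874903, plus strand: ggtagccaCCTGCTGcaatggtt
Both Flt1 matches lie in the 3' UTR of a shorter coding transcript of 13 exons and 2064 coding bases. The long coding transcript, of 30 exons and 3999 coding bases, has no exon at either place, and its own 3' UTR of 2616 bases holds 0 matches. Short Flt1 transcripts that stop inside the gene encode the secreted decoy receptor. The deposited table has a single line for Flt1, so these forms cannot be told apart in it. In Tek, the match stands in 2 of the 3 annotated 3' UTRs. The 7-base match for the other strand, miR-214-5p, occurred in the longest 3' UTRs of Flt4 and Tie1. For Tie1 the searched 3' UTR, of 2240 bases, belongs to a transcript with 1941 coding bases. The other coding transcript, with 3402 coding bases and a 3' UTR of 330 bases, also has an exon at that place. The Tie1 match is thus not shown to lie in a 3' UTR of the longer coding form. A match of these letters is a description of the sequence, not evidence of a site in use.

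None of the 10 genes passed the authors' test. At an adjusted p under 0.05 the count was 0 of 10, where 0.124% of all genes passed. That share is 25 genes, of which 21 (0.104% of all) were higher in Pkd2-miR-214-KO and 4 (0.0199%) were lower. Vegfa and Tie1 had the largest folds and the smallest p-values of the set, in opposite directions, with adjusted p = 0.899 and adjusted p = 0.657 in the authors' deposited table. They were also the 2 of 10 with an unadjusted p under 0.05, against 4.82% of all genes, with 1 of 10 higher where 3.1% of all genes were and 1 of 10 lower where 1.71% were. The other 8 had log2 folds of less than 0.3 in size, approximate intervals that hold 0 and an adjusted p of 1. Above 0 were 4 of the 10 folds and below 0 the other 6, against 7 above and 3 below once the median of a list of 20 endothelial markers was subtracted. For ligands made by other cells this subtraction is only a change of reference, and it says nothing about their direction. As deposited, the median log2 fold of the 10 genes was -0.0013 and their mean 0.0038. Of all genes 49.8% were positive and 48.2% negative, and the median was 0. A positive fold means more RNA in the Pkd2-miR-214-KO kidneys. This direction was read from Mir214, the deleted gene, which fell by 7.62 ± 1.08 on the log2 scale in the authors' deposited table. In whole kidney, fewer cells of a type and less RNA per cell cannot be told apart in any of these values. Sex and genotype cannot be told apart in them either. The labels give no sex, and Xist, described below, had a log2 fold of 10.21 ± 2.36.

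**Figure D1:**
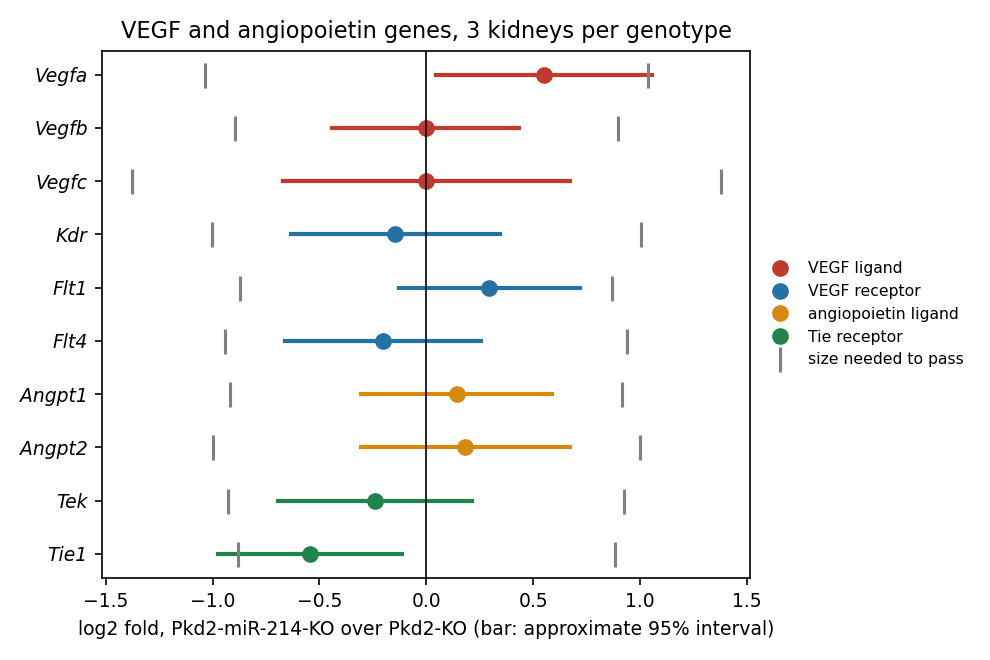
Log2 fold of each of the 10 genes, Pkd2-miR-214-KO over Pkd2-KO (horizontal axis; points: the authors' fitted folds, bars: approximate 95% intervals, colours: role), 3 kidneys per genotype. The bars of Vegfa (above 0) and Tie1 (below 0) leave out 0 and the other 8 hold it. No point reaches the grey ticks, about the size its own SE would have needed to pass. The folds of Vegfb, Vegfc and Kdr turn positive when the endothelial list's median is subtracted.

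The test's reach can be read from the genes that did pass. The smallest likelihood ratio among the 25 genes called was 16.1, which asks for a fold of 4.02 times its SE. For the 10 genes this is a log2 fold between 0.87 (Flt1, 1.83-fold) and 1.38 (Vegfc, 2.60-fold). Fitted folds clearly smaller than these would not have been called at the SE each gene had. The bound is approximate and applies to the fitted fold, not to the true difference between the genotypes. In the other direction, the approximate 95% interval lay within a log2 fold of 1 on either side for 9 of the 10 genes, the exception being Vegfa with an upper bound of 1.06.

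Among the VEGF ligands, Vegfa had a positive fold and the folds of Vegfb and Vegfc were close to 0. Vegfa, on chromosome 17 (46016993 to 46032369, minus strand), was put by the authors' deposited table at a log2 fold of 0.55 ± 0.26 (SE, n = 3 per genotype), which is 1.47-fold, with an approximate 95% interval of 1.03-fold to 2.08-fold. Its fold ranked at the 89.0 percentile of all genes, and its p at place 730 of 20138. Vegfb, a ligand of VEGFR1 linked to lipid handling in endothelium, lies on chromosome 19 (6982473 to 6987651, minus strand), and the authors' deposited table gives it a log2 fold of -0.0024 ± 0.22, with an interval of -0.44 to 0.44. Vegfc, the lymphatic growth factor, lies on chromosome 8 (54077606 to 54187096, plus strand) and had -0.00027 ± 0.34 in the authors' deposited table, with an interval of -0.67 to 0.67. Vegfc carried the largest SE of the 10 and the lowest mean level, a log2 CPM of 2.35, and its interval, 0.63-fold to 1.59-fold, is the widest of the set on the log2 scale. The gene-level values do not separate the splice forms of Vegfa, which differ in how tightly the protein holds to the matrix.

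The VEGF receptors did not share a direction. Flt1, on chromosome 5 (147561604 to 147726011, minus strand), showed a log2 fold of 0.29 ± 0.22 by the authors' deposited table (1.23-fold, interval 0.91-fold to 1.65-fold). Kdr, the main signalling receptor, lies on the same chromosome (75932827 to 75978458, minus strand) and had -0.14 ± 0.25 in the authors' deposited table (0.90-fold, interval 0.64-fold to 1.27-fold). Flt4, on chromosome 11 (49609263 to 49652739, plus strand), had -0.20 ± 0.23 in the authors' deposited table, with an interval of 0.63-fold to 1.20-fold. The log2 folds of Flt1 and Kdr differed by 0.44, and their intervals overlapped. No test of that difference could be made without values per animal. Of the 4 receptors whose annotated 3' UTRs hold the miR-214-3p match printed above, 3 (Kdr, Flt4 and Tek) had negative folds and Flt1 a positive one, Kdr turning to 0.031 after the endothelial list's median was subtracted. The median log2 fold of these 4 was -0.17, against 0.07 for the 6 genes without a match. The 4 are all receptors and the 6 are the 5 ligands and Tie1, so match and role cannot be told apart here. The median of the endothelial list was -0.18. Over all genes with an annotated 3' UTR the same medians were -0.014 with a match and 0.0012 without.

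The angiopoietins were both slightly positive, within their errors. Angpt1, on chromosome 15 (42424723 to 42676977, minus strand), showed 0.14 ± 0.23 on the log2 scale by the authors' deposited table, with an interval of 0.81-fold to 1.51-fold. Angpt2, on chromosome 8 (18690263 to 18741562, minus strand), had 0.18 ± 0.25 in the authors' deposited table, with an interval of 0.81-fold to 1.59-fold. The log2 folds of Angpt2, the antagonist, and Angpt1, the agonist, differed by 0.04, with overlapping intervals. No test of that difference was made, so an unchanged balance of their RNA is not shown. Angpt2 lies whole inside Mcph1, a gene on the opposite strand, with 0 shared exon bases, and the authors' deposited table puts Mcph1 at 0.07 ± 0.26. The 5' end of Angpt1 shares 737 bases with an antisense transcript annotated as Gm17473. Whether the authors counted by strand is not given in the sources used here, so reads of that stretch cannot be assigned with certainty. The other 8 genes overlap no other gene in this annotation.

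Both Tie receptors lie on chromosome 4 and both had negative folds. Tie1 (118471191 to 118490061, minus strand) was put by the authors' deposited table at a log2 fold of -0.54 ± 0.22, which is 0.69-fold with an interval of 0.51-fold to 0.92-fold. Its fold lay at the 9.85 percentile of all genes and its p at place 396 of 20138. Tek (94739289 to 94874976, plus strand) had -0.24 ± 0.23 in the authors' deposited table, or 0.85-fold with an interval of 0.62-fold to 1.16-fold. Tie1 and Tek differed by 0.30 in log2 fold, with overlapping intervals. The intervals of Vegfa and Tie1, the extremes of the set, did not overlap, and their log2 folds lay 1.10 apart. These genes were singled out by their values, so the distance is a description with no test.

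**Figure D2:**
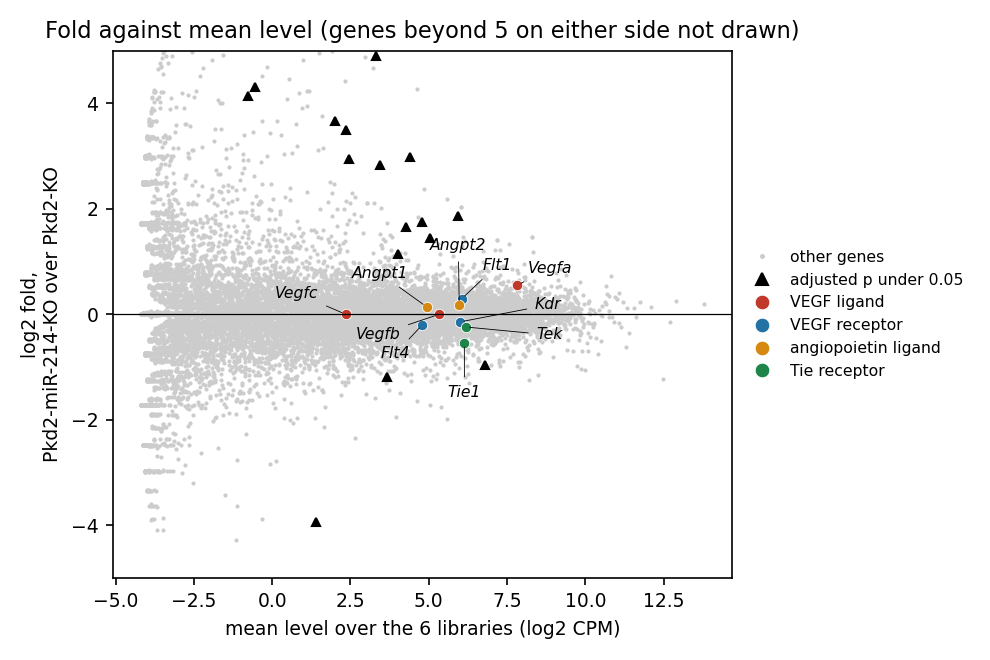
Log2 fold, Pkd2-miR-214-KO over Pkd2-KO (vertical axis), against the authors' mean level in log2 CPM over the 6 libraries (horizontal axis), for all genes (grey), the genes past an adjusted p under 0.05 (black triangles) and the 10 vessel growth genes (coloured by role). The 10 genes lie inside the grey band at mean levels of 2.35 to 7.83, with Vegfa at its upper side and Tie1 at its lower side.

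The mean log2 CPM of the 10 genes lay between 2.35 and 7.83, in a table that begins at -4.19. By mean log2 CPM, 9 of the 10 lay above the median gene, and Vegfc lay at the 39.1 percentile. To compare genes with each other, the authors' mean CPM over the 6 libraries was divided by the length of all annotated exons. On this scale of CPM per kb, a level and not a difference between genotypes, Vegfa was highest with 53.0, followed by Vegfb with 24.9. Angpt2 (17.0), Tek (15.4) and Tie1 (14.3) came next within a narrow range. Kdr had 7.07, Angpt1 5.85, Flt1 4.91, Flt4 3.36 and Vegfc 2.08 CPM per kb. On this scale Vegfa stood 7.49-fold above Kdr and 10.8-fold above Flt1, and Angpt2 2.91-fold above Angpt1. The length covers the exons of all transcripts of a gene, for Flt1 those of its long and its short forms. For Flt1 it is 13504 bases, where the long coding transcript has 3999 coding bases and a 3' UTR of 2616. For Kdr it is 9030 bases, where the coding transcript has 4035 coding bases and a 3' UTR of 1596. The levels of these receptors per transcript may therefore be understated, and the ratios and the order depend on the length used. The spread between animals behind these levels is not given, so neighbours in this order, such as Angpt2, Tek and Tie1, are not shown to differ.

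**Figure D3:**
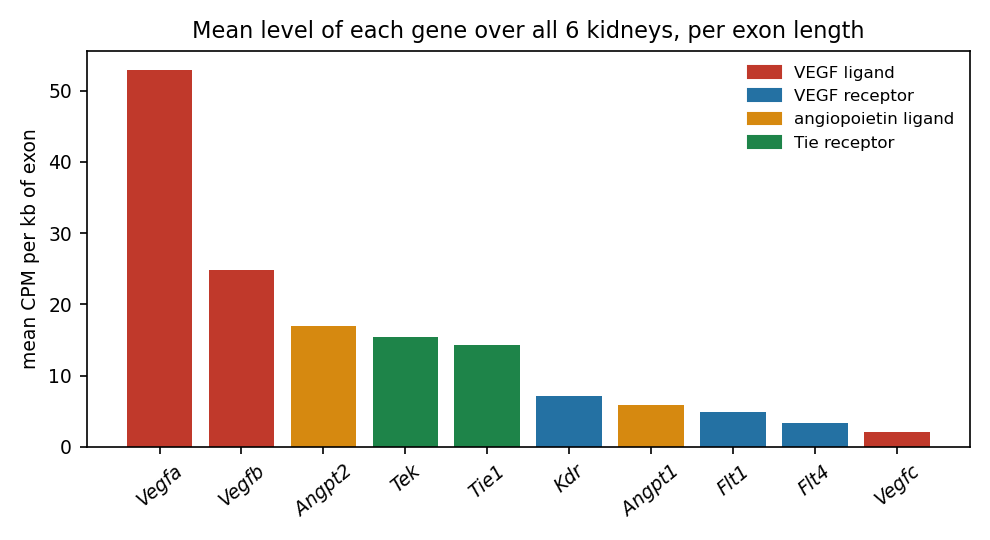
Mean level of each gene over all 6 kidneys as CPM per kb of annotated exon (vertical axis, from 0), in falling order and coloured by role; the authors' mean per gene, with no spread between animals. Vegfa leads with 53.0, Angpt2, Tek and Tie1 lie between 14.3 and 17.0, and Vegfc is lowest with 2.08.

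The cells that make or receive these factors were followed through marker lists that hold none of the 10 genes. The samples carried the genes of kidney tubules at high level (12 of 12 listed genes in the table, median log2 CPM 9.10) and those of blood endothelium at a median of 5.48 (20 of 20). In the endothelial list 15 of 20 genes lay below 0 and 5 above it, where 48.2% and 49.8% of all genes did. The list's median log2 fold was -0.18, and 0 of 20 passed, close to the 0.124% of all genes that did. Plvap, a protein of fenestrae, had -0.51 ± 0.25, Ehd3, a marker of glomerular endothelium, had -0.34 ± 0.20, and Ly6c1, found on capillary endothelium, had 0.48 ± 0.22 in the authors' deposited table. Relative to the endothelial list's median, Tie1 stood at -0.37, Tek at -0.07, Flt4 at -0.03, Kdr at 0.031 and Flt1 at 0.47, where Kdr changed sign. The part of endothelial content in the receptor values was not tested.

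Podocytes are a main source of VEGF-A. In each list of this paragraph the count past the threshold was 0, close to the share of all genes that passed, 0.124%. In the podocyte list 4 of 11 genes lay above 0 and 7 below it (median log2 fold -0.05, 0 of 11 past the threshold), with -0.43 ± 0.26 for Nphs1, a gene of the slit diaphragm, in the authors' deposited table. The tubule list, another source, had 12 of 12 negative folds (median -0.58), where 48.2% of all genes were negative, and 0 of 12 past the threshold. An SE above the 90th percentile of genes at similar mean level was found for 9 of the 12. The smallest p-values of the tubule list were those of the urate transporter gene Slc22a12 (-1.24 ± 0.38) and of Egf (-1.05 ± 0.45) in the authors' deposited table. Given the Xist value and the lack of sex in the labels, sex and genotype cannot be told apart in these tubule folds. Mural cell and fibroblast genes, among them the cells that make angiopoietin-1, had a median of -0.21 and a mean of 0.033, with 4 of 15 folds positive and 0 of 15 past the threshold. Dcn, a matrix proteoglycan gene of fibroblasts, had the smallest p of that list, and the authors' deposited table puts it at 1.18 ± 0.31 (adjusted p = 0.102).

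Lymphatic markers, a minor part of the kidney's endothelium, had mostly positive folds. Of 6 lymphatic genes 5 had positive folds, where 49.8% of all genes did, and the list's median was 1.25. Past the threshold was 1 of the 6, where 0.124% of all genes passed. That gene was Lyve1, a hyaluronan receptor of lymphatic endothelium that some macrophages also carry, which rose by 2.84 ± 0.56 on the log2 scale (adjusted p = 0.000931) in the authors' deposited table. Mmrn1 had 1.86 ± 0.61 and the chemokine gene Ccl21a 2.12 ± 0.88 in the authors' deposited table, neither of them past the threshold. Pdpn, also positive (0.31 ± 0.21), had a mean log2 CPM of 6.50, where the median of the list was 3.15. Prox1, the transcription factor that defines lymphatic identity, had -0.12 ± 0.44 in the authors' deposited table. Vegfc and Flt4 stood at -0.00027 and -0.20 beside them. Of the 6 lymphatic genes 5 had an SE above the 90th percentile of genes at similar mean level, against 0 of the 10 vessel growth genes. Blood and platelet genes were positive in 8 of 8 cases (median 1.05), where 49.8% of all genes were. Of these 8, 0 passed the threshold, where 0.124% of all genes did. Hbb-bt, a hemoglobin gene, had 2.03 ± 0.87 in the authors' deposited table. Xist, expressed from the inactive X chromosome of females, stood at 10.21 ± 2.36 (adjusted p = 0.0168) by the authors' deposited table and was singled out after its value was seen. The labels do not give the sex of the animals, so sex and genotype cannot be told apart.

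**Figure D4:**
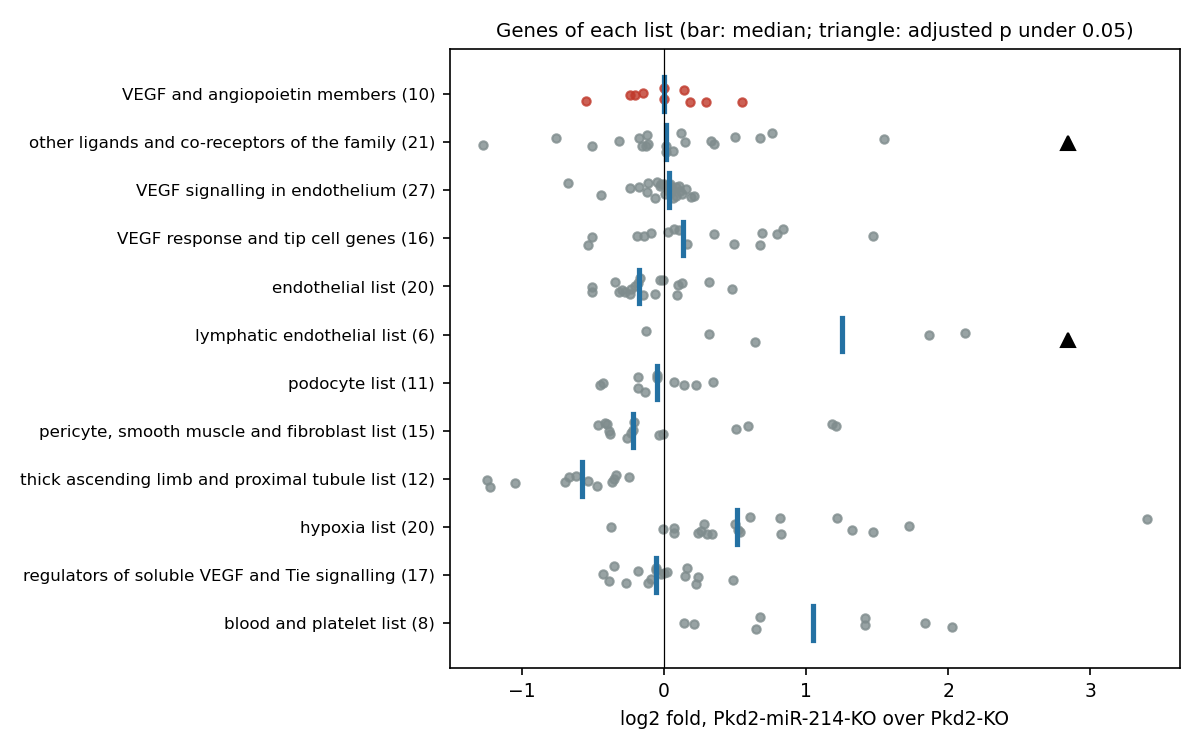
Log2 folds, Pkd2-miR-214-KO over Pkd2-KO (horizontal axis), of the 10 vessel growth genes (red, top) and of 11 further lists (grey, number of genes in brackets); blue bars are medians and black triangles genes with adjusted p under 0.05. Lyve1, drawn in the pair of lists that hold it, is the single triangle gene, and the hypoxia list lies mostly right of 0 with a median of 0.51, while the median of the top row is -0.0013 and its mean 0.0038.

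Other ligands and co-receptors, signal transducers and modulators gave no call, apart from Lyve1, which stands in the first of these lists without being a VEGF or angiopoietin ligand or co-receptor. Of the 21 genes of that list, 12 had positive and 9 negative folds (median 0.016), and Lyve1 was the 1 past the threshold. The neuropilins, co-receptors of VEGF, had log2 folds of -0.11 ± 0.23 for Nrp1 and -0.32 ± 0.23 for Nrp2, and Figf, the gene of VEGF-D, had 0.15 ± 0.25 in the authors' deposited table, all of them named here for their role. Aplnr, the apelin receptor, had -1.27 ± 0.46 (adjusted p = 0.484), and the angiopoietin-like gene Angptl4, an inhibitor of lipoprotein lipase, had -0.76 ± 0.35 in the authors' deposited table. Signal transducers downstream of VEGFR2 lay close to 0, with 17 of 27 positive, a median of 0.033 and a mean of -0.019. The count past the threshold was 0, where 0.124% of all genes passed. The count with an unadjusted p under 0.05 was also 0, where the share of all genes was 4.82%. With 27 genes, a count of 0 is close to both shares. The largest folds among these transducers were -0.68 ± 0.67 for the adaptor gene Sh2d2a and -0.44 ± 0.29 for Rcan1, an inhibitor of calcineurin, in the authors' deposited table. Extracellular and intracellular modulators of the pathway had 7 of 17 folds positive, a median of -0.05 and 0 past the threshold, with 0.49 ± 0.26 for Ccbe1, which promotes VEGF-C maturation, and -0.43 ± 0.26 for Col18a1, the source of endostatin, in the authors' deposited table.

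Genes that respond to VEGF or mark sprouting tip cells ranged from -0.54 to 1.47 in log2 fold. Of 16, 11 were positive (median 0.14) and 0 passed, where 49.8% of all genes were positive and 0.124% passed. An unadjusted p under 0.05 was found for 7, 5 of them higher and 2 lower, where 4.82% of all genes had one. Cxcr4, a chemokine receptor of tip cells, had 0.79 ± 0.30, Igfbp3 0.84 ± 0.33 and the guidance receptor gene Unc5b -0.54 ± 0.23 in the authors' deposited table. The vasodilator gene Adm (1.47 ± 0.47, adjusted p = 0.259 in the authors' deposited table) belongs to this list and to the hypoxia list.

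Vegfa is a textbook target of the hypoxia-inducible factors, and the hypoxia list, which does not hold it, lay mostly on the same side of 0. Of its 20 genes 18 were positive and 2 negative, where 49.8% and 48.2% of all genes were. The list's median log2 fold was 0.51, beside 0.55 ± 0.26 for Vegfa (adjusted p = 0.899 in the authors' test). Whether the fold of Vegfa has to do with hypoxia was not tested. None of the 20 hypoxia genes passed, where 0.124% of all genes did. An unadjusted p under 0.05 was found for 9 of the 20, all of them higher, where 3.1% of all genes were higher with such a p. The oxygen sensor gene Egln3 had 1.33 ± 0.40 (adjusted p = 0.213), the erythropoietin gene Epo 3.39 ± 1.06 at a mean log2 CPM of 0.28, and the mitophagy gene Bnip3 1.21 ± 0.41 in the authors' deposited table. Of the 20 genes 10 had an SE above the 90th percentile of genes at similar mean level, and the SE of Vegfa lay at the 63.6 percentile. The core of the hypoxia response element, ACGTG or GCGTG on either strand, was looked for from 250 bases before to 50 after each RefSeq start (GRCm38.p6), a window in which 43.8% of all 32851 promoters hold it. Windows were found for 8 of the 10 genes, not for Angpt1 and Angpt2, and 4 of the 8 (Vegfa, Vegfb, Kdr and Flt1) held a match. In Vegfa the window of the outer start had none, and that of the inner start held a pair, shown in capitals, 218 and 211 bases before it.
Vegfa inner start, chr17:46025362-46025389, minus strand: cctggagtGCGTGccCACGTcagagagc
The CACGT in it is ACGTG read on the other strand. No statement on binding follows from these letters, and elements outside the window were not searched.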

How the data were processed

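Kidney RNA libraries came from 3 Pkd2-miR-214-KO and 3 Pkd2-KO mice. The labels' protocol names a stranded kit for total RNA and the series text polyadenylated RNA, so the selection is not settled. Per the submitters' processing notes, mm10, edgeR and TopHat2 2.0.12 were used. The settings for counting, filtering and normalization are not stated there. Per the file headers, the deposited table holds the authors' log2 fold, mean log2 CPM, likelihood ratio (a score on 1 degree of freedom), p-value and adjusted p-value. The adjusted p equalled the Benjamini-Hochberg adjustment over 20138 genes (largest difference 5.1e-14). Depth per library is unknown. The planned count test needed values per library and gave way to the authors' own test, the fallback named with it.

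From the table, each SE was taken as the absolute log2 fold divided by the root of the likelihood ratio. Intervals of 95% reach 1.96 SE to each side. Both are poor at low counts. Percentiles of SE used the 1000 genes nearest in mean log2 CPM. Exon lengths and 3' UTRs came from GENCODE M21, whose symbols matched 19024 genes. Functions were tested on simulated data. The software was matplotlib 3.10.9, scipy 1.17.1, numpy 2.4.6 and pandas 2.3.3 under Python 3.11.15.

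The members and all lists were chosen with earlier results of these data known. Named were all 10 members, up to 4 genes with the smallest p of each other list, and Mir214. Not every gene so chosen is reported here. Genes named beyond that rule were chosen for role or after their values were seen. Nothing in the labels says whether litters were shared between animals.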

Additional observations from a re-analysis of the deposited data

How the results depend on the processing

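The count of 0 of 10 genes past the threshold stayed at 0 when only the 14520 genes with a mean log2 CPM of at least 0 or the 13620 with at least 1 were adjusted over, at an adjusted p under 0.1, and with Bonferroni adjustment. The smallest adjusted p of the 10, that of Tie1, was then 0.788 and 0.845 under the 2 expression filters. Subtracting the median of all genes, 0, moved nothing. Subtracting the endothelial list's median turned the sign of Vegfb (0.17), Vegfc (0.17) and Kdr (0.031). Vegfb and Vegfc had stood at -0.0024 and -0.00027, so their turn reflects the size of the shift alone. Taking means in place of medians turned the sign for the 10 genes (0.0038), the VEGF signalling list (-0.019) and the mural cell and fibroblast list (0.033). With a 6-base match, 7 of the 10 genes held a miR-214-3p site in place of 4, where 48.9% of all genes with a 3' UTR did. A search for miR-214-5p, added after the data were seen, found 2 of 10, where 9.4% of all genes hold that match. Counts of called genes in the other lists did not change under the expression filter that was tried.

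No paired analysis was possible because the table holds no values per animal and the labels pair none. Leaving out an animal, comparing animals within a genotype and giving depth or spread per group were not done for the same reason.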

Other observations

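Apelin and its receptor, a further ligand and receptor of endothelium, had folds of opposite sign. Apln, a tip cell ligand, had a log2 fold of 0.67 ± 0.33 (adjusted p = 0.976) and Aplnr -1.27 ± 0.46 (adjusted p = 0.484) in the authors' deposited table. Neither passed, and the pair was chosen after its values were seen. Esm1, a tip cell proteoglycan that is also made after VEGF stimulation, had 0.50 ± 0.25 in the authors' deposited table, while Plvap had -0.51 ± 0.25 and Dll4, the Notch ligand of tip cells, -0.14 ± 0.25.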
